A study of Mus musculus with 6 samples.

Results

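Transcripts of 9 NK-type receptors and signalling adaptors were followed in cultured OT-I cells that lacked or kept Themis. The genes were taken by symbol, namely Ncr1, Klrb1c, Klrb1f, Klri2, Klra1, Klra8 and Klra9 for the receptors, and Tyrobp and Fcer1g for the adaptors. All 9 were present in the deposited table of 854 genes. OT-I cells are mouse CD8 T cells with a transgenic T-cell receptor for an ovalbumin peptide. One set of cells carried a conditional knockout of Themis (cKO), a T-lineage protein acting downstream of the T-cell receptor, and the other was wild-type (WT). Cells of both genotypes were enriched as naive cells from spleen and lymph nodes and cultured for 3 days with 1 µg/ml IL-2, after which 3 libraries of each genotype were sequenced. The sources used here do not state the Cre driver of the knockout, the age of the mice or any pooling of animals. Nothing in the labels says that the replicates are separate mice or cultures, and the p-values below then cover the spread of 6 libraries that may be technical copies.

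NK-type receptors are surface proteins of natural killer cells that part of the CD8 T cells can also carry, in particular activated, memory-phenotype and innate-like ones. Receptors that activate the cell have short tails and signal through small partner adaptors whose tails hold an ITAM, a tyrosine motif that recruits the kinases Syk and ZAP-70 once phosphorylated. Receptors that restrain the cell instead carry an ITIM in their own tail, which recruits phosphatases. Tyrobp encodes DAP12 and Fcer1g encodes the Fc receptor gamma chain, which are both ITAM adaptors of NK and myeloid cells.

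The table holds selected genes and not the whole transcriptome. Between -0.94 and 1.06 on the scale of log2 ratios of mean counts it holds no gene, so every gene listed, the members included, differed about as much as that gap requires. Over the table the deposited counts summed to 424605 to 437437 in cKO libraries and 946766 to 1054442 in WT libraries, and the depth of the whole libraries is unknown. Values below are scaled counts, that is deposited estimated counts divided by a factor per library (0.944 to 1.04) that evens out libraries of 1 genotype and takes the genotypes at equal depth. Themis had 977, 1227 and 1215 scaled counts in cKO replicates 1 to 3, against 5524, 5784 and 4962 in WT replicates 1 to 3. Of 10 genes listed here as markers of CD8 T cells, Cd5 was in the table and the other 9 were not. Cd5 had 382 to 459 scaled counts in cKO libraries and 1094 to 1387 in WT libraries. Its call ended with TMM or DESeq2 size factors (log2 fold change -0.32 to -0.31, adjusted p of 0.0604 to 0.0713 by edgeR and DESeq2). In the authors' deposited table its log2 value was -1.77, with a q-value of 1.31e-34.

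The 3 Klra members, also called Ly49, are close copies of each other but not alike in function, which the start of their coding sequences shows. Klra1 (Ly49A) and Klra9 (Ly49I) are inhibitory receptors for MHC class I, and Klra8 (Ly49H) is an activating receptor for a glycoprotein of mouse cytomegalovirus that signals through DAP12. The first 60 coding bases are given from GENCODE M21 on GRCm38, all on the minus strand of chromosome 6, with the bases at which the 3 genes are not all alike in capitals.
Klra8 (chr6:130128101-130128160): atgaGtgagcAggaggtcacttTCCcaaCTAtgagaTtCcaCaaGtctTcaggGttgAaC
Klra1 (chr6:130380603-130380662): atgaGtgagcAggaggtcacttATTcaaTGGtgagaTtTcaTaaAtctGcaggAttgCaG
Klra9 (chr6:130191242-130191301): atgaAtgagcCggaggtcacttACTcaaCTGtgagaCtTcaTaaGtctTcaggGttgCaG
At bases 22 to 24, counted from the A of the start codon, Klra1 reads TAT and Klra9 reads TAC. In inhibitory Ly49 receptors this codon is the tyrosine of the ITIM. Klra8 reads TTC there, which is A23T relative to either of the others and also T24C relative to Klra1 (the other gene's base first, then the position and the base of Klra8). The 3 genes share 44 of these 60 bases, with 47 shared by Klra8 and Klra1, 50 by Klra8 and Klra9, and 51 by Klra1 and Klra9.

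All 9 genes were higher in the Themis cKO libraries, by 2.18-fold (Klra9) to 3.07-fold (Ncr1) as a ratio of mean scaled counts. All 9 of 9 passed the expression filter and all 9 passed an adjusted p of 0.05 in the higher direction (edgeR quasi-likelihood test, Benjamini-Hochberg over the 794 genes tested), where 24.2% of the tested genes were called higher and 75.8% lower. Since 100% of the tested genes passed in one direction or the other, passing is a property of the table. The members' count adds only their direction. The members were chosen with earlier results of these data known, so this shared direction is a description and no independent support. In each of the 9 the 3 cKO libraries lay above the 3 WT libraries, which held with cKO higher for 23.8% of tested genes. The median log2 fold change was 1.32 over the members, -1.34 over all tested genes and 1.45 over the 192 that were higher. The members' median thus lay a little below that of the genes that were higher. In bulk RNA a change in the number of cells that carry a transcript and a change in the RNA per cell cannot be told apart.

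**Figure D1:**
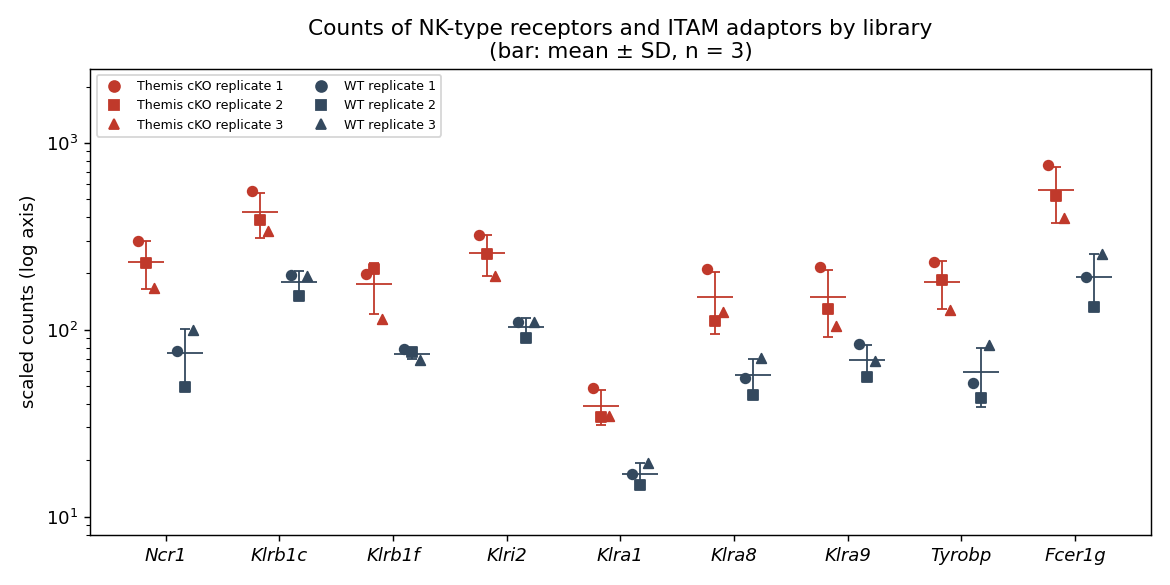
Scaled counts (log axis) of the 7 receptor genes and the 2 adaptor genes, with each library as a point, Themis cKO in red left of WT in dark blue, and bars for mean ± SD (n = 3 each). For each gene the 3 cKO points lie above the 3 WT points, most narrowly for Klra9, with 105 scaled counts in the lowest cKO library and 83.4 in the highest WT library.

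**Figure D2:**
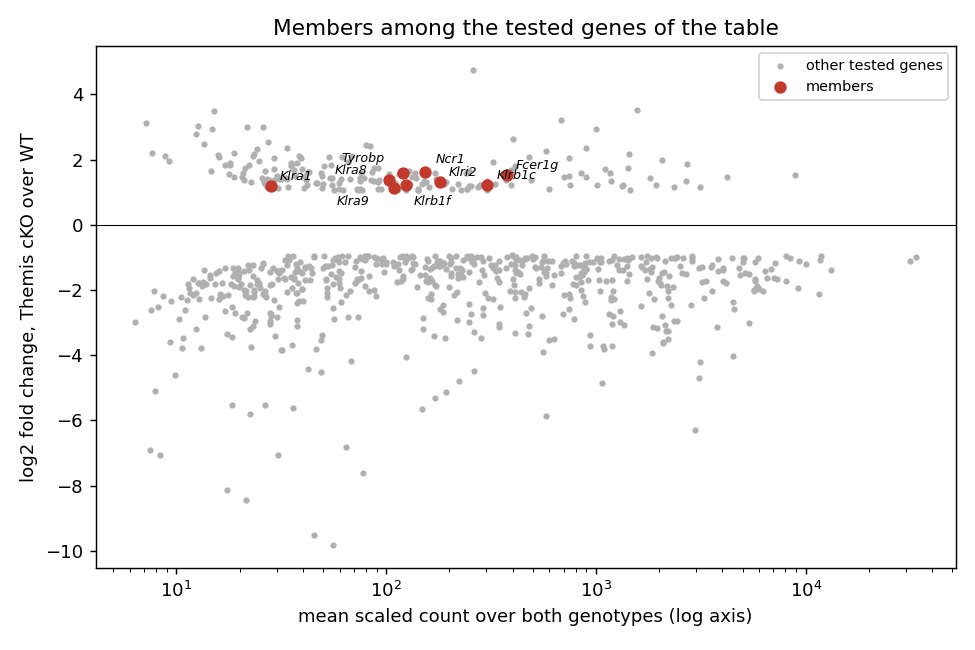
Log2 fold change of cKO over WT against the mean scaled count of both genotypes (log axis) for the 794 tested genes, with the members in red. The members lie between 1.12 and 1.62 on the log2 scale, inside the band of the genes that rose, and no gene lies near 0 because the table holds none.

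Ncr1 encodes NKp46, an activating receptor of NK cells that in mice signals through the Fc receptor gamma chain and CD3 zeta. The gene (Gene ID 17086) lies on the plus strand of chromosome 7, at 4337715 to 4345184 of GRCm38.p6. It had 299, 228 and 168 scaled counts in cKO replicates 1 to 3, against 77.4, 49.2 and 99.8 in WT replicates 1 to 3. The lowest cKO library was 1.68 times the highest WT library, although the WT libraries themselves spread 2.03-fold. The log2 fold change was 1.62 ± 0.28 (± standard error; edgeR, adjusted p = 0.000344).

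Klrb1c encodes NK1.1, the activating receptor by which mouse NK cells are commonly stained, which pairs with the Fc receptor gamma chain. It (Gene ID 17059) lies on the minus strand of chromosome 6, at 128778485 to 128788641. Its scaled counts were 554, 385 and 336 in cKO replicates 1 to 3, against 196, 152 and 195 in WT replicates 1 to 3. The genotypes stood apart by more than either spread, at a log2 fold change of 1.23 ± 0.21 (± standard error; edgeR, adjusted p = 0.000255). Klrb1f, a relative of Klrb1c in the same receptor family that binds Clec2 proteins, lies on the plus strand of the same chromosome at 129045837 to 129059724 (Gene ID 232408). It had 199, 212 and 114 scaled counts in cKO, against 78.5, 76.1 and 69.2 in WT. The WT libraries were nearly level, within 1.13-fold, while cKO replicate 3 was well below the other two. The log2 fold change was 1.23 ± 0.24 (± standard error; edgeR, adjusted p = 0.000673).

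Klri2 encodes a lectin-like receptor that pairs with Klre1 to form an activating receptor. It (Gene ID 320407) lies on the minus strand of chromosome 6, at 129729041 to 129740484. It had 322, 255 and 195 scaled counts in cKO replicates 1 to 3, against 109, 89.8 and 111 in WT replicates 1 to 3. Of the 9 genes it had the smallest adjusted p, 0.000154 (edgeR), at a log2 fold change of 1.32 ± 0.20 (± standard error). Its partner Klre1 was not in the table.

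Both inhibitory Ly49 genes and the activating one were higher in cKO. Klra8 (Gene ID 16639, 130115226 to 130129898 on chromosome 6, minus strand) had 211, 112 and 124 scaled counts in cKO, against 55.1, 45.0 and 70.8 in WT. Klra9 (Gene ID 16640, 130178626 to 130194374, minus strand) had 215, 129 and 105 in cKO, against 83.4, 55.6 and 67.8 in WT. Klra1 (Gene ID 16627, 130363918 to 130386874, minus strand) had the lowest counts of the 9 genes, at 48.6, 34.3 and 34.7 in cKO and 16.9, 14.7 and 19.4 in WT. In all 3 the first cKO library stood above the other two. Klra8 had a log2 fold change of 1.38 ± 0.28, Klra1 of 1.2 ± 0.28 and Klra9 of 1.12 ± 0.28 (± standard error), with adjusted p of 0.000892, 0.00191 and 0.00329 by edgeR. The differences among these 3 values are smaller than any of their standard errors, and they were not tested. When the adjustment covered the 16996 genes that the authors' p-values and q-values imply, the call of Klra9 ended (adjusted p = 0.0705, against 8.72e-14 to 0.0112 under its other alternatives) and those of the other 8 genes held (0.0033 to 0.0408), with 20.4% of the tested genes called higher under that adjustment.

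The counts of the Klra genes are uncertain one by one, because copies share sequence. Of the stretches of 50 bases in the longest coding transcript, 33.1% in Klra8 and 32.4% in Klra9 also occur in transcripts of another gene, led by the pseudogene Klra14-ps for Klra8 and by Klra3 for Klra9. The share was 3.2% in Klra1, 18.1% in Klrb1c, where most fell in the predicted gene Gm44511, and 2.8% in Klri2. It was 0.0% in Klrb1f, Ncr1, Tyrobp and Fcer1g. Ncr1, Tyrobp and Fcer1g had whole numbers in every library, and the 6 Klr genes did not.

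Both adaptor genes were higher by about as much as Ncr1. Tyrobp (Gene ID 22177, chromosome 7, 30413782 to 30417582, plus strand) had 231, 184 and 127 scaled counts in cKO replicates 1 to 3, against 51.9, 43.3 and 82.5 in WT replicates 1 to 3. Fcer1g (Gene ID 14127, chromosome 1, 171229572 to 171234349, minus strand) had 758, 519 and 396 in cKO, against 191, 133 and 254 in WT. In both genes replicate 1 was the highest of the cKO libraries and replicate 3 the highest of the WT libraries, with no overlap between genotypes. The log2 fold changes were 1.60 ± 0.29 for Tyrobp and 1.53 ± 0.28 for Fcer1g (± standard error; edgeR, adjusted p = 0.000408 and 0.00045).

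Per kilobase of the longest coding transcript, the adaptors were the most abundant of the 9 in both genotypes. Fcer1g averaged 817 ± 270 scaled counts per kilobase in cKO and 282 ± 89.0 in WT (SD, n = 3 each). Tyrobp averaged 302.5 ± 86.7 in cKO and 99.2 ± 34.5 in WT, above the receptors, though in WT within its own SD of Klrb1c (162 ± 43.8 in cKO and 69.0 ± 9.4 in WT). Ncr1, Klra8, Klra9 and Klrb1f followed at 155, 127, 117 and 103 per kilobase in cKO and 50.5, 48.4, 53.9 and 43.8 in WT. In cKO each neighbour in that order, from Klrb1c down to Klrb1f, differed by less than 1 SD. Klri2 averaged 65.7 ± 16.3 in cKO and 26.4 ± 3.0 in WT, and Klra1 was lowest at 23.5 ± 4.9 in cKO and 10.2 ± 1.4 in WT. The lengths are of GENCODE M21 transcripts and which isoforms were expressed was not tested.

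The 9 genes also varied together between libraries of 1 genotype. On the scale of log2(scaled count + 1), all 9 stood above their cKO mean in cKO replicate 1, by 0.24 to 0.59, and all 9 below it in cKO replicate 3, by -0.56 to -0.15. In cKO replicate 2, 4 stood above and 5 below. In WT, replicate 2 was the lowest library for 8 of the 9 genes and replicate 3 the highest for 6. Among the 192 tested genes that were higher in cKO, cKO replicate 1 was the highest of its genotype in 30.7% (8 of 9 members), cKO replicate 3 the lowest in 20.8% (7 of 9) and WT replicate 2 the lowest in 27.6% (8 of 9). Klrb1f was the exception in both genotypes, highest in cKO replicate 2 and lowest in WT replicate 3. Without cKO replicate 1 all 9 were still called, with log2 fold changes of 0.76 for Klra9 to 1.39 for Ncr1. In that fit 195 genes of the table were called higher and 615 lower, so passing was again a property of the table.

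**Figure D3:**
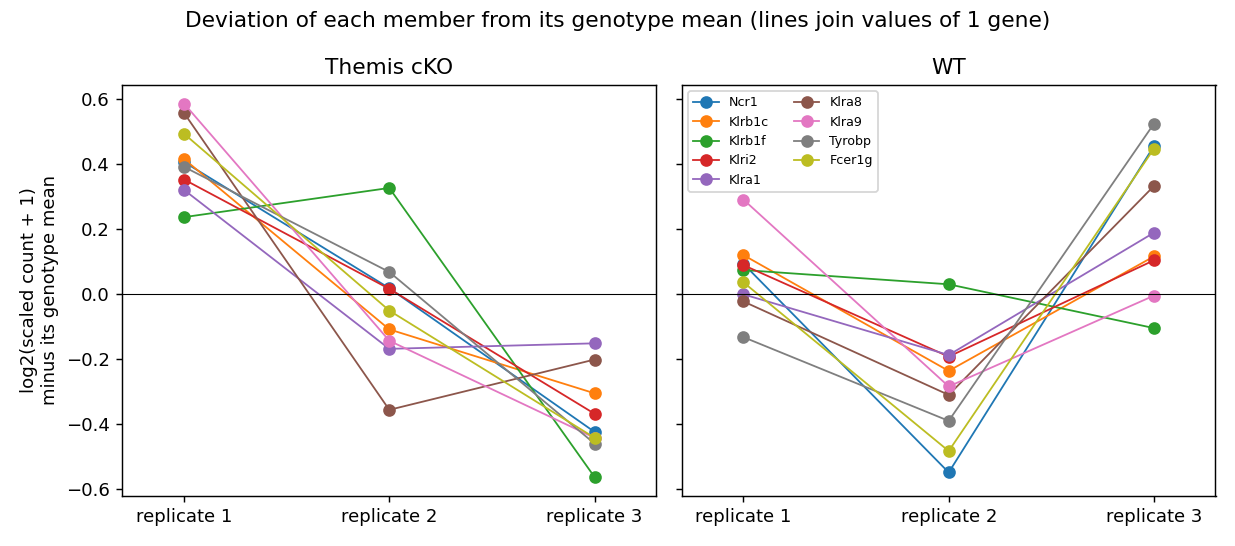
Log2(scaled count + 1) of each member minus its mean over the 3 libraries of the genotype, Themis cKO on the left and WT on the right, with a line joining the values of 1 gene across libraries that have no order among themselves. All 9 genes lie above 0 in cKO replicate 1 and below 0 in cKO replicate 3, and 8 of 9 lie below 0 in WT replicate 2.

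The counts of Ncr1, Tyrobp and Fcer1g kept nearly fixed proportions in the 6 libraries, whatever the genotype. A ratio within a library does not depend on the scaling. The count of Fcer1g was 2.54, 2.28 and 2.36 times that of Ncr1 in cKO replicates 1 to 3, against 2.47, 2.70 and 2.55 times in WT replicates 1 to 3. The highest ratio was 1.19 times the lowest, while the counts of Ncr1 themselves spread 5.94-fold over the same libraries. Tyrobp stood at 0.771, 0.806 and 0.759 of Ncr1 in cKO and at 0.671, 0.880 and 0.827 in WT, a spread of 1.31-fold. The lectin-like receptors tracked Ncr1 less closely, with spreads of 1.70-fold for Klri2, 1.84-fold for Klrb1c, 1.87-fold for Klra8, 1.99-fold for Klra1 and Klra9 and 2.33-fold for Klrb1f. Fcgr3, an Fc receptor, and Itgax, an integrin chain, are not among the 9 genes and spread less than these receptors, at 1.52-fold and 1.60-fold. For Klrb1c the ratio to Ncr1 averaged 1.85 ± 0.16 in cKO and 2.53 ± 0.57 in WT (SD, n = 3 each) and the ranges of the genotypes overlapped. All these ratios are to Ncr1, so they do not show how closely the lectin-like receptors followed each other. Klrb1c and Klri2, for example, deviated from their cKO means almost alike on the log2 scale. The deviations were 0.42, -0.11 and -0.31 for Klrb1c and 0.35, 0.02 and -0.37 for Klri2 in replicates 1 to 3. How many other pairs of genes keep proportions this close was not computed.

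**Figure D4:**
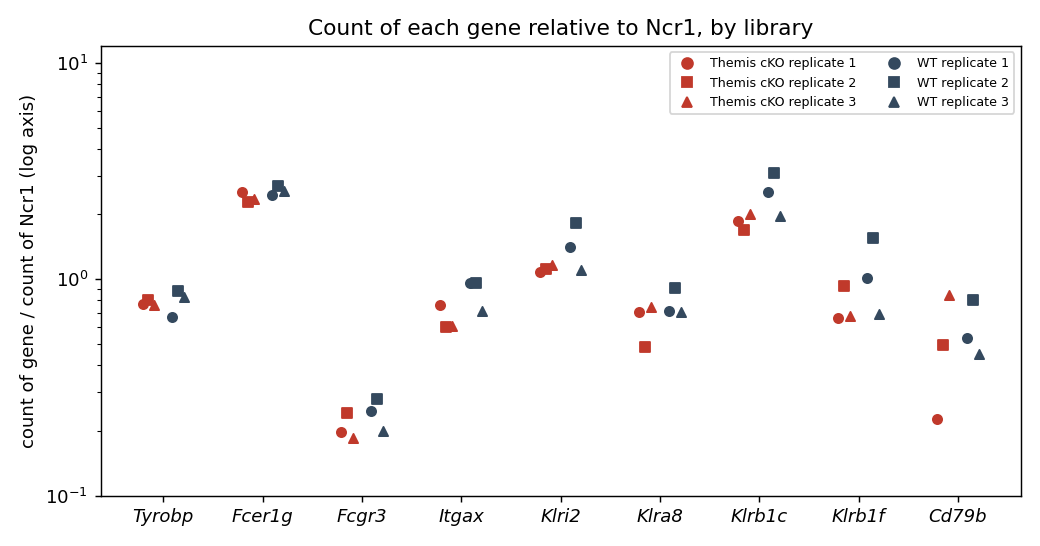
Count of each gene divided by the count of Ncr1 in the same library (log axis), Themis cKO in red left of WT in dark blue, with 1 symbol per replicate number. Tyrobp and Fcer1g stay within 1.31-fold and 1.19-fold over the 6 libraries, against 1.52-fold for Fcgr3, 1.60-fold for Itgax and 3.77-fold for the B cell gene Cd79b.

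The deposited comparison of the authors gives the same direction for all 9 genes and larger values. In the authors' deposited table the log2 values of cKO over WT were 2.0 for Ncr1, 1.91 for Tyrobp, 1.88 for Fcer1g, 1.72 for Klri2, 1.67 for Klra8, 1.65 for Klra1, 1.62 for Klra9, 1.49 for Klrb1c and 1.32 for Klrb1f. All 9 had a q-value under 0.05 in the authors' deposited table, where 67.6% of the table did in either direction and 12.5% did with cKO higher. Each of the 9 deposited values exceeded the log2 fold change computed from the deposited counts. That was so for 34 of the 192 tested genes that were higher (17.7%), and the median deposited value of those 192 was 1.01, against 1.67 for the members. Why the authors' deposited table departs from the counts was not tested.

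**Figure D5:**
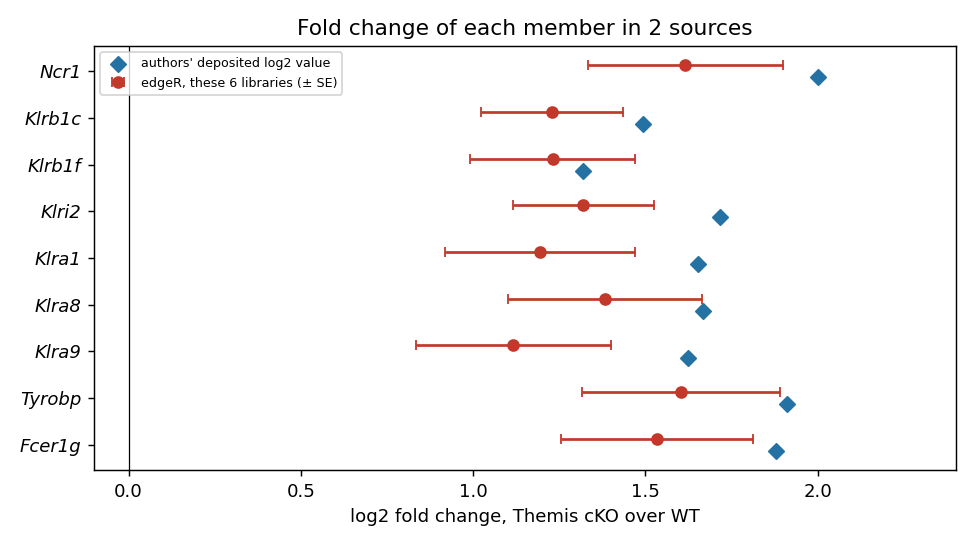
Log2 fold change of cKO over WT for each member, as computed here with edgeR (circles, ± SE) and as given in the authors' deposited table (diamonds). The deposited value lies to the right of the computed one for all 9 genes, by least for Klrb1f (1.32 against 1.23).

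The 6 Klr members lie in the NK gene complex of chromosome 6, a cluster of lectin-like receptor genes. From Klrb1c to Klra1 (128778485 to 130386874, 1.61 Mb) RefSeq lists 39 protein-coding genes on GRCm38.p6, of which 8 were in the table. The 7 Klr genes among them, of which 6 are the members, were all higher in cKO. Klra10, a Klra gene outside the 9, had 17.5, 16.4 and 10.01 scaled counts in cKO and 4.85, 2.32 and 4.25 in WT. Its log2 fold change was 1.96 (edgeR, adjusted p = 0.00215). These counts are low, and Klra10 was not tested when the smallest count was set to 20. How much sequence it shares with other genes was not computed. The eighth was Cd69, an activation marker encoded between Klrb1f and Klri2, which was lower, with 2350 to 2487 scaled counts in cKO libraries and 8810 to 9719 in WT libraries (log2 fold change -1.94, edgeR adjusted p = 1.23e-08). With TMM or DESeq2 size factors, which centre the selected table on itself, Cd69 kept its sign (-0.65 to -0.64). Of the 29 protein-coding Klr genes of the genome 7 were in the table, and of the 13 Klra genes 4.

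Stretches before the start of Ncr1 and Klrb1c are shown as examples of members that hold a RUNX motif there. These are the letters of the binding site of Runx3, a factor of NK and CD8 T cells. Any link of the letters to the rise was not tested. The stretches are the 250 bases up to the start, 5′ to 3′ on the gene's strand, from RefSeq promoters on GRCm38.p6. TGTGGT or its reverse complement ACCACA is in capitals.
Ncr1 (chr7:4337465-4337714, plus strand): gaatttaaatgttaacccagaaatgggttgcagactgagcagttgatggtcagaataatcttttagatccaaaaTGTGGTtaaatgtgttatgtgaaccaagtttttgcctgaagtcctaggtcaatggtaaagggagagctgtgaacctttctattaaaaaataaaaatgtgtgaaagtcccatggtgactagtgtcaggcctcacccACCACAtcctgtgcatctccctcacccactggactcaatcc
Klrb1c (chr6:128788642-128788891, minus strand): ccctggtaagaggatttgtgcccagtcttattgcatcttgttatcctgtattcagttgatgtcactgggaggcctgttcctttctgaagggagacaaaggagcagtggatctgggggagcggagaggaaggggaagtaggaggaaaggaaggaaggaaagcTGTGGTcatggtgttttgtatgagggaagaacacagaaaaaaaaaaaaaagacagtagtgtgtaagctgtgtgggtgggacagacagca
Promoters were matched for 7 of the 9 genes, without Tyrobp and Klri2. The RUNX letters occur in 3 of the 7 (Ncr1, Klrb1c and Klra1) and in 14.18% of 27025 promoters of the same length. The ETS letters GGAAGT occur in 2 of the 7 (Klrb1c and Klrb1f) and in 19.99% of all, the TCF letters CTTTGA in 1 of the 7 (Klrb1f) and in 14.05% of all, and the T-box letters GGTGTGA in 0 of the 7 and in 3.31% of all. Each motif was searched on both strands. A match describes letters and does not show binding.

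Other parts of the pathway were sparsely represented in the table. Of 18 further receptors that pair with the adaptors, the table held 2, each of them higher in cKO. Fcgr3, the CD16 receptor for immunoglobulin G that needs the Fc receptor gamma chain, had 58.6, 54.9 and 31.0 scaled counts in cKO and 19.0, 13.8 and 19.9 in WT (log2 fold change 1.45, edgeR adjusted p = 0.00145). Clec4e, a myeloid receptor for microbial glycolipids, had 11.1, 40.3 and 26.2 in cKO and 9.54, 4.92 and 3.84 in WT (log2 fold change 2.09, edgeR adjusted p = 0.00393). Its call ended over 16996 genes (edgeR, adjusted p = 0.0841, the highest of its alternatives, which began at 7.49e-07). Of 23 other lectin-like and related NK-type receptors Klra10 alone was in the table, and of 7 other adaptors and receptor chains Cd79b alone. None of 19 kinases, phosphatases and linkers downstream and none of 11 ligands was in the table.

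The few genes of NK function that the table held did not all move the same way. Of 13 cytotoxic effectors 2 were in the table, with Gzmm, a granzyme, at 221 ± 24.9 scaled counts in cKO and 88.4 ± 17.7 in WT, and Ifng at 304 ± 48.3 in cKO and 2102 ± 47.9 in WT (SD, n = 3 each; edgeR adjusted p = 7.88e-05 and 3.95e-08). Of 13 transcription factors of NK and innate-like cells 4 were in the table, 1 higher and 3 lower. Tcf7, a factor of naive and memory T cells, was higher by 1.53 on the log2 scale, and Nfil3, which NK cells need to develop, fell by 2.14. Ikzf2 (-1.09) and Prdm1 (-1.14) were also lower, though both changed sign under scalings that centre the table on itself. Of 10 genes of memory-phenotype CD8 T cells, Cxcr3 (1.73) and Itga4 (1.07) were higher and Ly6c2 (-1.01) was lower. Ly6c2 changed sign under the same scalings. The authors' deposited q-values were over 0.05 for Tcf7 (0.456), Ikzf2 (0.0506), Prdm1 (0.137) and Ly6c2 (0.32). They were under 0.05 for Gzmm, Ifng, Nfil3, Cxcr3 and Itga4.

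Markers of other cells were looked at in the same libraries. Of 12 NK cell markers fixed beside the members, Cd7 was in the table, at 1282 to 1712 scaled counts in cKO libraries and 232 to 342 in WT libraries, and it was lowest in cKO replicate 1, where the members were highest. Of 9 B cell markers Cd79b and Ms4a1 were in the table, both called higher, with summed scaled counts of 83.6 to 230.2 in cKO libraries and 49.2 to 72.9 in WT libraries and the lowest cKO sum again in replicate 1. The call of Ms4a1 ended without any one of WT replicate 1, WT replicate 2, cKO replicate 2 or cKO replicate 3 (edgeR, adjusted p of 0.051 to 0.124, against 0.0247 with all 6), and with limma-voom on all 6 (adjusted p = 0.0909). Of 11 gamma-delta T cell markers Blk, Sox13 and Cd163l1 were in the table, all called higher, summing to 516.5 to 1528 in cKO libraries and 199.6 to 251 in WT libraries, with the highest sum in cKO replicate 2. Of 15 myeloid and dendritic markers Itgax and Fcgr3 were higher and Mpeg1 lower, with sums of 195 to 329.5 in cKO libraries and 400.4 to 512 in WT libraries. Mpeg1, the macrophage pore-forming protein perforin-2, set the direction of those sums, at 44.3, 46.2 and 62.6 scaled counts in cKO and 395, 339 and 421 in WT. Itgax and Fcgr3 were each higher in every cKO library than in any WT library. Unlike Cd7 and the B cell sum, both were highest in cKO replicate 1 and lowest in cKO replicate 3, the order of most members. When the adjustment covered 16996 genes the calls of Ms4a1, Blk, Sox13 and Itgax ended (edgeR, adjusted p of 0.0507 to 0.528), while those of Cd79b, Cd163l1 and Fcgr3 held. Of 10 mast cell and basophil markers Hdc was lower, though not with TMM or DESeq2 size factors (adjusted p 0.915 to 0.949 by edgeR and DESeq2), and Cpa3, at 0 in WT replicates 2 and 3, was too low to test, and none of 7 granulocyte markers was in the table. In the authors' deposited comparison the q-value was over 0.05 for Cd7 (0.54, at a log2 value of 0.903), Cd79b (0.171) and Ms4a1 (0.108). The same held for Blk (0.0656) and Hdc (0.162). It was under 0.05 for Sox13, Cd163l1, Itgax, Fcgr3, Mpeg1 and Cpa3. The part of any of these cell types in the rise of the members was not tested.

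Of 535 other tested genes with at least 20 scaled counts on average in each genotype, the 6 that followed the members most closely between libraries of a genotype were Slc3a2, Trim12a, Itgax, Fam129a, Adora2a and Pvr. They were ranked on this likeness, so it is a description with no test. Their deviations from the genotype means had a Pearson correlation of 0.956 to 0.982 with the mean deviation of the 9 members over the 6 libraries, which share their depth and scaling. Of these 6 genes only Itgax, the CD11c integrin chain of dendritic cells that mouse NK cells also carry, was higher in cKO. It had 227, 138 and 102 in cKO replicates 1 to 3 and 74.0, 47.4 and 70.9 in WT replicates 1 to 3 on the scale of scaled counts. The other 5 were lower with the genotypes at equal depth, with log2 fold changes of -1.52 for Fam129a to -0.95 for Slc3a2, though Slc3a2, Trim12a and Adora2a changed sign under the scalings that centre the table on itself and the calls of Fam129a and Pvr ended there (adjusted p of 0.12 to 0.67).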

How the data were processed

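Per the labels' protocols, column-purified RNA went into DNBSEQ-G400 libraries. The submitters' processing notes name RSEM 1.2.12, HISAT2 2.0.4, DESeq2 1.4.5, Bowtie2 2.2.5 and the GRCm38.p6 build without their roles. The authors deposited an estimated count per gene and library (66.1% of values are whole), and per the file headers a log2 fold change, a p-value and a q-value. The 854 genes are described as selected by fold change, and the cut-off used is not given here.

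Counts were rounded and fitted over the whole table with edgeR 4.0.16 in R 4.3.3 (quasi-likelihood test, genotype as the only term, smallest count 10, 794 genes tested), and p-values were adjusted by Benjamini-Hochberg. Library factors were medians of ratios to the mean of the same genotype (over genes above 10 counts in each of its libraries), with the genotypes at equal depth, since TMM and DESeq2 factors assume mostly unchanged genes. Standard errors were derived from the fold change and F statistic. On simulated data the test called 95% of 2-fold and 100% of 4-fold changes, and 6 of 581 unchanged genes. Those data held mostly unchanged genes, unlike this table, so the check does not cover its make-up. Replicates differed by more than sampling noise (chi-square per degree of freedom 6.34 to 19.7). An exact permutation test of 3 against 3 cannot go below p = 0.10 and was not used. If the authors tested 16996 genes, the deposited p-values and q-values give ranks within 0.02 of a whole number for 71.0% of 427 genes, and the next best number gives 36.3%. The members and lists were chosen with earlier results of these data known. The genes named are the 9 members, list members in the table, and the 6 genes most alike between libraries, leaving out predicted genes and pseudogenes. Themis was named as the targeted gene, and Cd69 and Klra10 for their position. A listed gene is not reported here and was left out of its list. Alternatives used DESeq2 1.42.0 and limma 3.58.1, other scalings and filters, leaving out single libraries and a block for the replicate number. Python 3.11.15, pandas 2.3.3, numpy 2.4.6 and matplotlib 3.10.9 were also used.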

Additional observations from a re-analysis of the deposited data

How the results depend on the processing

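All 9 members were called higher under each alternative but one, the adjustment over 16996 genes, which left 8. Scalings that centre the table on itself raised the median log2 fold change of all tested genes by 1.29 to 1.30. The median over the members, 1.32, became 2.61 with TMM, 2.61 with DESeq2 size factors in edgeR and 2.62 in DESeq2 itself. The calls over the table, 192 higher and 602 lower, became 226 higher and 213 lower with TMM (439 in all), 224 higher and 211 lower when edgeR used DESeq2 size factors (435), and 236 higher and 215 lower when DESeq2 ran whole (451). Under the same 3 scalings Ikzf2 stood at 0.20, 0.21 and 0.21, Prdm1 at 0.15, 0.16 and 0.16, Ly6c2 at 0.29, 0.29 and 0.29, Slc3a2 at 0.342, 0.346 and 0.346, Trim12a at 0.276, 0.281 and 0.281, and Adora2a at 0.182, 0.185 and 0.185, against negative values with the genotypes at equal depth. The construction of these scalings accounts for the shift. With no scaling or with the gap of the table centred on 0, the members' median was 1.32 and 1.26. Leaving out 1 library gave medians of 1.13 (without cKO replicate 1) to 1.49 (without cKO replicate 3), with all 9 called. Over the table these fits called 191 to 197 genes higher and 602 to 616 lower, so the members' calls are again a property of the table.

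The fold changes rest on equal depth of the genotypes, which the table cannot settle. A fit with the replicate number as a block gave a members' median of 1.30 with all 9 called, and 191 genes higher and 602 lower. Same-numbered libraries did not deviate together (correlations of 0.004, -0.144 and -0.271 over 616 genes, against -0.082 to 0.226 for libraries of unlike numbers). With 3 libraries of each genotype, these values cannot settle whether same-numbered libraries share a source.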
